A study of Mus musculus with 6 samples.

Results

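The genes described here are 10 members of the secreted Wnt antagonist and R-spondin families, measured in mouse tracheal mesenchyme after injury. They were taken by name: Sfrp1, Sfrp2, Sfrp4, Frzb, Dkk2, Dkk3, Wif1, Rspo1, Rspo2 and Rspo3. Every probe set, a group of array probes designed against 1 transcript, that the platform annotation gave to 1 of these symbols alone was used. This gave 18 probe sets of the 45037 tested, and 10 genes of 18193. Sfrp1 had 5 probe sets, Frzb, Dkk3, Rspo2 and Rspo3 had 2 each, and the others had 1.

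The tissue came from adult male C57Bl/6 mice. In 3 samples it was taken 48 h post injury (hpi), after the mice had breathed 500 ppm SO2 for 4 h, a gas exposure after which luminal cells are lost from the airway epithelium and basal cells rebuild it. The 3 control samples were normal trachea. In both groups each sample pooled 4 mice, and the epithelium was peeled off after 23 min in dispase, so that the mesenchyme stayed a mixture of cell types. Values are expression values on the log2 scale after robust multi-array analysis (RMA), 1 array per sample. They rank arrays for 1 probe set, and the level of one probe set cannot be set against that of another.

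Wnt ligands signal by binding a Frizzled receptor together with the co-receptors LRP5 or LRP6, which stabilizes beta-catenin. Secreted frizzled-related proteins (Sfrp genes and Frzb) and Wif1 bind the ligands outside the cell, and Dickkopf proteins act at the co-receptors, whereas R-spondins bind Lgr receptors and keep the ligases Rnf43 and Znrf3 from removing Frizzled from the surface. In the developing mouse trachea, Wnt signaling between epithelium and mesenchyme is needed for cartilage to form. The question asked here is which of these secreted modulators the mesenchyme expressed at a different level during repair.

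At 48 hpi, Sfrp1 rose in all 5 of its probe sets, to 2.00-fold the control level at the brightest. Wif1 and Dkk3 fell, to 0.61 and 0.60 of control. A gene was called when its adjusted p, from limma with Benjamini-Hochberg adjustment over all probe sets, was under 0.05, and the other 7 genes did not pass at their brightest probe set. Of these, Dkk2, Rspo1, Sfrp2 and Sfrp4 passed with a replicate block, a fit that compares the 48 hpi and control samples of the same replicate number. Rspo2 differed least, with both of its probe sets within 0.10 of control on the log2 scale.

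**Figure D1:**
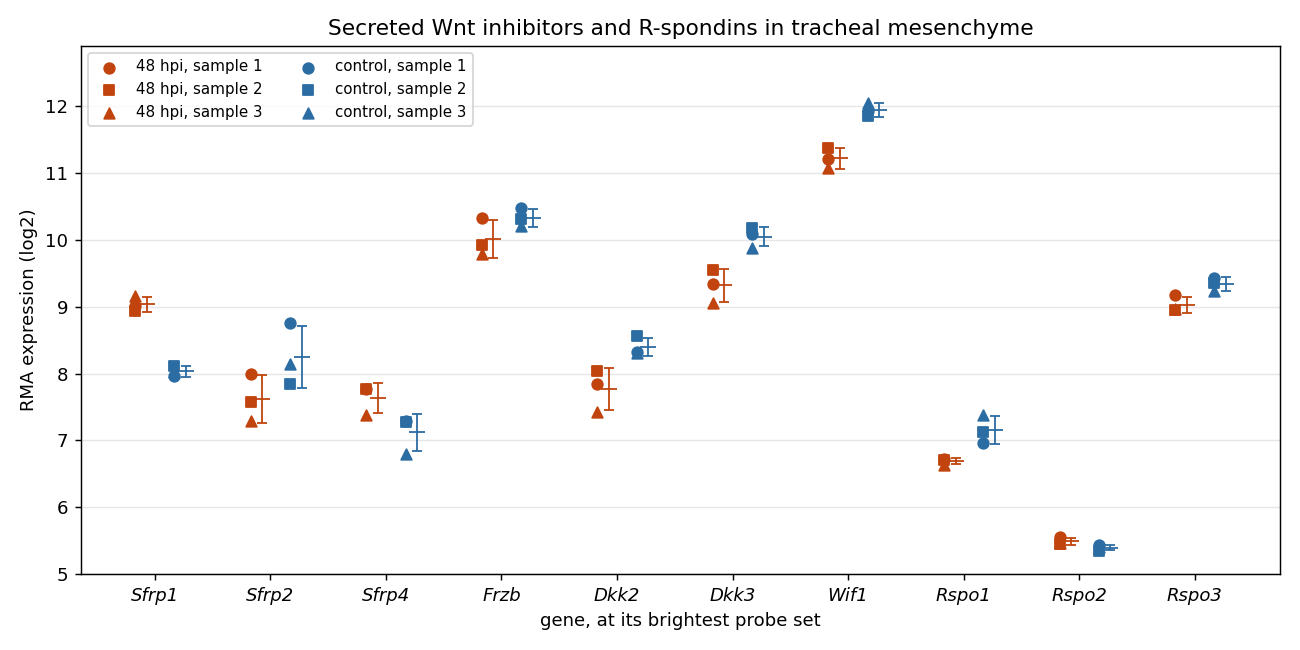
RMA values (log2, vertical axis) of the 10 genes at their brightest probe set (horizontal axis). Symbols are single samples, bars beside them give mean ± SD (n = 3), with 48 hpi in orange-red and control in blue. Sfrp1 lies between 8.94 and 9.16 at 48 hpi, above all controls, and Wif1 between 11.07 and 11.38, below all controls.

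Sfrp1 encodes a secreted frizzled-related protein that binds Wnt ligands through a domain like that of the Frizzled receptors. Its brightest probe set, 1428136_at, read 9.01, 8.94 and 9.16 in the 48 hpi samples, against 7.96, 8.12 and 8.02 in the controls. All 48 hpi samples were thus higher than all controls, and the samples within a group lay close together. The log2 fold change was 1.00 ± 0.10 (SE), with a 95% interval of 1.71 to 2.34 for the fold and an adjusted p of 0.00264 in limma. By p-value it was number 217 of the 45037 probe sets.

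The other Sfrp1 probe sets gave the same direction with different sizes. In 1448395_at the values were 8.27, 8.25 and 7.86 at 48 hpi, against 6.95, 7.02 and 7.04 in controls, a fold of 2.18 (adjusted p = 0.00460). In 1416594_at they were 7.73, 7.80 and 7.75 at 48 hpi, against 7.15, 7.25 and 6.97 in controls, a fold of 1.55 (adjusted p = 0.0171). None of these groups overlapped. The probe set 1438620_x_at, whose x marks probes that may also bind other transcripts, changed least, by 1.40-fold (adjusted p = 0.0368). The largest fold, 2.39 (adjusted p = 0.00476), was in 1460187_at, whose controls at 3.69 to 4.22 lay below 4.92, the level under which most probe sets of olfactory receptors fell and a signal was taken as dim. That fold is therefore poorly fixed. The calls of 1428136_at, 1448395_at and 1460187_at stayed past the threshold whichever sample was left out, while 1438620_x_at passed in 0 of the 6 such fits, at 0.0589 to 0.133. The call of 1416594_at was lost without control replicate 3 (adjusted p = 0.0556) and without 48 hpi replicate 1 (0.0528), 2 (0.0576) or 3 (0.0785). The 5 probe sets measure 1 gene and are not 5 independent results.

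Sfrp4, another family member of the same domain structure, had one probe set. It read 7.77, 7.77 and 7.38 at 48 hpi, against 7.29, 7.28 and 6.80 in controls. The groups did not overlap, but in both of them the samples numbered 3 were the lowest. Without regard to the numbers the log2 fold change was 0.52 ± 0.17 (SE) and did not pass (adjusted p = 0.157). Within numbers the differences were 0.48, 0.49 and 0.58, and the adjusted p became 0.0143 when the replicate number entered limma as a block.

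Sfrp2 and Frzb, the other frizzled-related genes, had lower means at 48 hpi. Sfrp2 read 8.0, 7.57 and 7.29 at 48 hpi, against 8.75, 7.84 and 8.15 in controls, so that one 48 hpi sample lay above the lowest control. Its log2 fold change was -0.62 ± 0.26 (SE, adjusted p = 0.261), and -0.62 ± 0.13 with the replicate block (adjusted p = 0.0289). Differences within numbers were -0.74, -0.26 and -0.85, so the second pair moved least.

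Frzb was first isolated from cartilage and is a marker of chondrocyte precursors. At 1416658_at it read 10.33, 9.92 and 9.79 at 48 hpi, against 10.48, 10.31 and 10.21 in controls, and the groups overlapped. The log2 fold change of -0.32 ± 0.15 (SE) passed in neither fit (adjusted p = 0.319 and 0.0791 with the block). Its dimmer probe set 1448424_at, at -0.40 ± 0.17, passed with the block alone (adjusted p = 0.254, and 0.0361 with the block).

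Wif1, which binds Wnt ligands through a domain unrelated to Frizzled, fell. It read 11.21, 11.38 and 11.07 at 48 hpi, against 11.93, 11.85 and 12.05 in controls. The highest 48 hpi sample was well below the lowest control. The log2 fold change was -0.72 ± 0.11 (SE), a fold of 0.61 with a 95% interval of 0.51 to 0.72, and an adjusted p of 0.0160. The call was lost without 48 hpi replicate 1 (adjusted p = 0.0542), without 48 hpi replicate 3 (0.0690) and without control replicate 3 (0.0674), with folds of the same sign.

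Promoter sequence from RefSeq (build GRCm38.p6) was held for 5 of the 10 genes, namely Frzb, Sfrp2, Dkk2, Rspo1 and Wif1, each of which had a lower mean at 48 hpi. The 250 bases before the annotated start were searched on both strands for CTTTGA (TCF/LEF, the factors that work with beta-catenin), TGANTCA (AP-1) and TTCNNNGAA (STAT). Matches were found in Frzb alone, 1 for TCF/LEF and 1 for STAT. Among all 32851 promoters of this length, 13.8%, 6.75% and 7.02% held the 3 motifs. The windows of Frzb, with its matches in capitals, and of Wif1, the member of the 5 that was called lower and that held no match, are shown so that they can be set side by side. Frzb lies at chr2:80447397-80447646 on the minus strand and Wif1 at chr10:121033754-121034003 on the plus strand, both written 5′ to 3′. The TCF/LEF match begins 95 bases before the Frzb start and the STAT match 87. A match is a run of letters and was not tested as a binding site.
Frzb: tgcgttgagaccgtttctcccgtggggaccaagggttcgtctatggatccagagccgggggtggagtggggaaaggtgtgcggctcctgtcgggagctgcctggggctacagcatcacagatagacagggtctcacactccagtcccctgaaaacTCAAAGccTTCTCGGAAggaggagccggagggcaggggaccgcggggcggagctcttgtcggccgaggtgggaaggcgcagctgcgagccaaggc
Wif1: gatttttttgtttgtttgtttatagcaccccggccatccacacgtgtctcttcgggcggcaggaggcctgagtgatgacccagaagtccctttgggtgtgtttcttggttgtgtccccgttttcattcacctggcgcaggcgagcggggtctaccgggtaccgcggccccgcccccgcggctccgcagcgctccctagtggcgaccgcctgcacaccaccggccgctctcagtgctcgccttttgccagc

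Both Dickkopf genes had lower means at 48 hpi. Dkk3, a divergent member that does not block the LRP co-receptors as Dkk1 does, fell at 1448669_at, which read 9.34, 9.55 and 9.06 at 48 hpi, against 10.09, 10.17 and 9.88 in controls. These groups did not overlap. The log2 fold change was -0.73 ± 0.14 (SE, adjusted p = 0.0387). At the second probe set, 1417312_at, it was -0.47 ± 0.14, which passed only with the replicate block (adjusted p = 0.124 and 0.0337 with the block). The call of 1448669_at was kept without 48 hpi replicate 2 (0.0393) and lost in each of the other 5 leave-one-out fits, at 0.0754 to 0.117.

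Dkk2 encodes a Dickkopf that can dampen or enhance Wnt signaling depending on the co-receptor Kremen2. It read 7.84, 8.04 and 7.43 at 48 hpi, against 8.33, 8.56 and 8.31 in controls, again with no overlap. The log2 fold change of -0.63 ± 0.16 (SE) had an adjusted p of 0.0880, past the threshold only with the block (0.0164).

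R-spondins, which raise Wnt signaling, did not pass at any probe set without the block. Rspo1 read 6.72, 6.71 and 6.64 at 48 hpi, against 6.96, 7.12 and 7.38 in controls. Its groups did not overlap, and the 48 hpi samples were less spread (6.69 ± 0.04) than the controls (7.15 ± 0.21, SD, n = 3 each). The log2 fold change was -0.46 ± 0.12 (SE), with adjusted p = 0.0843, and 0.0484 with the replicate block. Rspo3 read 9.17, 8.95 and 8.96 at 48 hpi, against 9.43, 9.36 and 9.24 in controls at its brighter probe set 1455607_at. There, too, all injured samples were below all controls, yet -0.31 ± 0.10 passed in neither fit (adjusted p = 0.149 and 0.0645 with the block). The dimmer 1443187_at gave -0.53 ± 0.16, with adjusted p = 0.134 and 0.0963. When the probe sets of each gene were averaged before the fit, Rspo3 passed at -0.42 ± 0.10 (adjusted p = 0.0415) and so did Rspo1 (0.0478), whose 1 probe set and fold were the same in both fits.

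Rspo2, which mouse mutants show to be needed for normal laryngeal and tracheal cartilage and lung growth, passed in neither fit. It read 5.55, 5.45 and 5.47 at 48 hpi, against 5.43, 5.35 and 5.41 in controls at 1430104_at. These groups lay side by side without overlap, and those of 1455893_at overlapped, with all values between 5.23 and 5.38. Adjusted p was 0.582 and 0.979. The 95% interval of its log2 fold change ran from -0.09 to 0.28 there, and from -0.20 to 0.19 at 1455893_at.

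**Figure D2:**
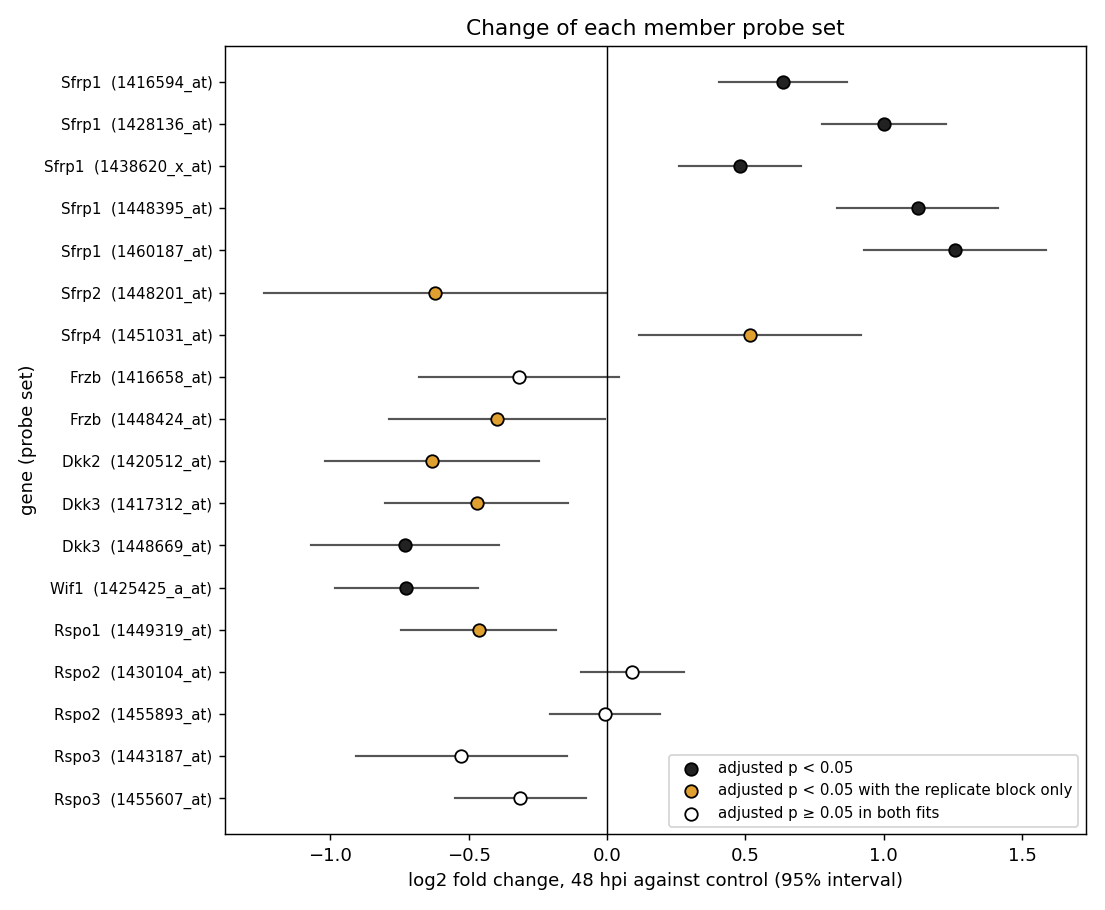
Change of the 18 probe sets (vertical axis) as log2 of 48 hpi over control, with 95% intervals (horizontal axis), black where adjusted p was under 0.05 and orange where it was so with the replicate block only. The 5 Sfrp1 probe sets run from 0.48 to 1.26, and the Wif1 and the brighter Dkk3 probe set lie at -0.72 and -0.73.

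Over the 18 probe sets, 5 were called higher and 2 lower at 48 hpi. Among all probe sets tested 3.49% were called higher and 0.846% lower. Over the 10 genes at their brightest probe set, 1 was called higher and 2 lower, beside 4.97% and 1.24% of all genes. The median log2 fold change of the 10 genes was -0.39, against -0.01 over all genes. Of the 10, 7 lay below 0, beside 9683 of all 18193 genes. With the replicate block, 6 of the probe sets were higher and 7 lower (6.43% and 4.51% of all probe sets), which for the genes meant 2 higher and 5 lower (8.77% and 4.64% of all genes). The 48 hpi and control samples did not overlap in 7 probe sets that were higher and 7 that were lower. This held for 13.0% and 12.1% of all probe sets. All 5 Sfrp1 probe sets were among the 7 that were higher. At the brightest probe set, 3 of the 10 genes were higher without overlap and 5 lower, beside 3138 and 2386 of 18193 genes.

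Differences within replicate numbers had one sign in all 3 pairs for each of the 10 genes, as they did for 53.9% of all genes. The lowest of the 48 hpi samples was the one numbered 3 in 7 of the 10 genes, and in 32.5% of all genes. Among controls, the sample numbered 3 was the lowest in 5 of the 10 and in 36.7% of all genes. At the brightest Sfrp1 probe set the 48 hpi sample numbered 3 was instead the highest, which held for 1 of its 5 probe sets, and in 1448395_at that sample was the lowest.

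**Figure D3:**
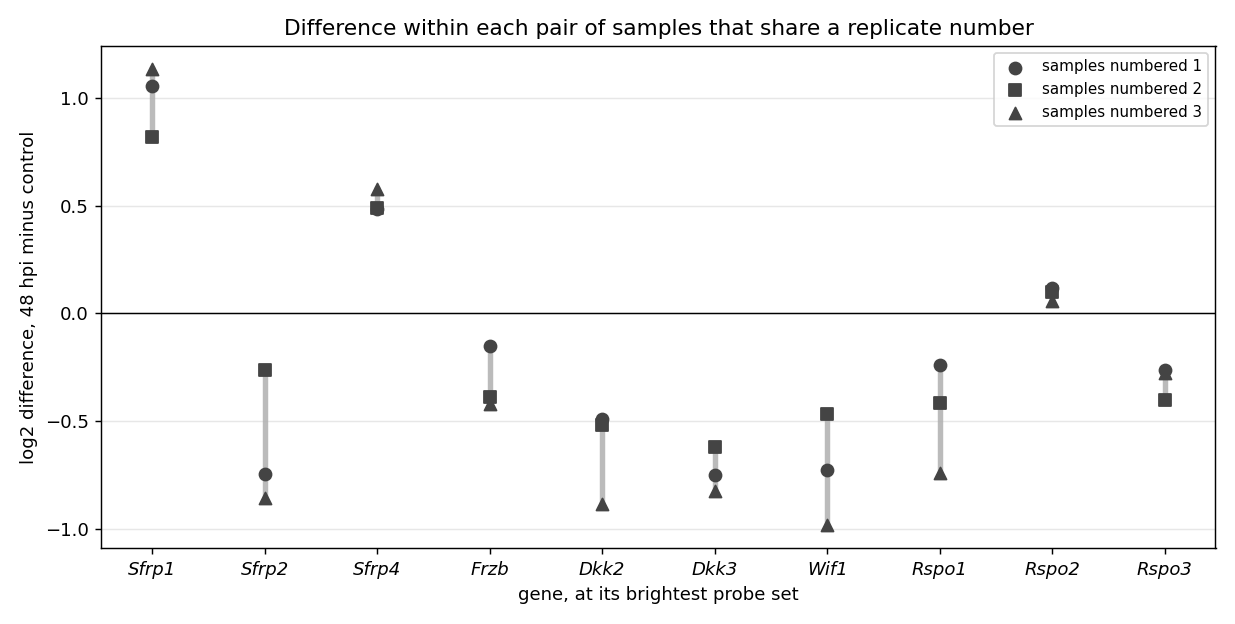
Sample at 48 hpi minus the control of the same replicate number, in log2 RMA units (vertical axis), for each gene at its brightest probe set (horizontal axis), 1 symbol per number, with a bar over their range. Sfrp1 lies between 0.82 and 1.13, Sfrp4 between 0.48 and 0.58, and Wif1 between -0.98 and -0.47.

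Markers of the labelled tissue were above the dim bound on average: 15 of 15 chondrocyte, 11 of 11 fibroblast and 11 of 11 smooth muscle and pericyte markers. So were 10 of 10 airway epithelial and 8 of 8 secretory and gland markers, although the epithelium had been peeled off. The bound is a low one, passed by 12833 of the 18193 genes, members not counted. Foxj1 and Trp63, named after their values were seen, lay close to the bound of 4.92, with means of 4.96 and 4.97. Several marker lists also differed between the groups. The mean level of 15 chondrocyte markers was 10.64 to 11.03 in 48 hpi samples, against 11.22 to 11.49 in controls, and 3 of them fell, 11 with the replicate block. Macrophage markers averaged 8.92 to 9.54 at 48 hpi, against 7.13 to 7.44 in controls, with 9 of 10 higher. All 9 measured cell division markers were higher, at 7.95 to 8.43 at 48 hpi, against 4.71 to 5.14 in controls. Fibroblast markers (11.42 to 11.60 at 48 hpi, 11.61 to 11.86 in controls) fell in 2 of 11, and with the block 3 were lower and 1 higher. Endothelial markers (7.59 to 7.86 at 48 hpi, 7.22 to 7.50 in controls) rose in 3 of 10 (4 with the block) and neutrophil markers (6.73 to 7.32 at 48 hpi, 5.06 to 5.77 in controls) in 3 of 7 (4 with the block), while Schwann and nerve markers (8.94 to 9.26 at 48 hpi, 9.41 to 9.52 in controls) fell in 1 of 5 (2 with the block). Of the smooth muscle, epithelial and gland lists, 0, 2 and 2 members had an unadjusted p under 0.05 in limma and 0 were called. Such a p was reached by 2651 genes that were higher and 1690 that were lower, of all 18193. With the block 1 epithelial marker, Scgb1a1 (log2 fold change -2.57, adjusted p = 0.0146), and 1 gland marker, Scgb3a2 (-2.07, 0.0339), were lower, both products of airway secretory cells and both named after their values were seen. All 8 gland markers lay below 0, and their mean level was 11.07 to 12.66 at 48 hpi and 12.17 to 12.79 in controls. Epithelial markers averaged 6.94 to 7.95 at 48 hpi and 7.09 to 7.83 in controls. The part of these shifts in the members' values was not tested, and in a bulk sample fewer cells of a type and less RNA per cell cannot be told apart.

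Other genes of the pathway were read from 6 lists with 77 measured members of 79. Of these, 2 were called higher and 3 lower at 48 hpi, beside 4.97% and 1.24% of all genes. The median log2 fold change of the 77 was -0.09. Among receptors of the R-spondins and the ligases they restrain, 1 of 7 fell. This was Lgr4, the broadly expressed R-spondin receptor, which read 9.54, 9.62 and 9.43 at 48 hpi, against 10.17, 10.22 and 10.08 in controls. Its log2 fold change was -0.63 ± 0.09 (SE, adjusted p = 0.0132), and 1 of its 2 probe sets passed. The related receptors Lgr5 (0.02 ± 0.18) and Lgr6 (-0.04 ± 0.12), named after their values were seen, did not pass. Gpc3, a cell surface glypican that can bind Wnt ligands, passed with the block alone (adjusted p = 0.0184, and 0.166 without it). Its log2 fold change was -0.69 ± 0.23 (SE without the block), and it was named in the same way.

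The 14 other secreted or membrane-bound inhibitors and R-spondins had a median log2 fold change of -0.01, with 7 below 0 and 6 dim. Of these, Notum, an enzyme that removes the lipid Wnt ligands need, fell. It read 7.30, 7.52 and 7.33 at 48 hpi, against 7.97, 8.26 and 8.27 in controls, a log2 fold change of -0.78 ± 0.12 (SE, adjusted p = 0.0154). With the replicate block alone, Igfbp4, an IGF-binding protein that can also antagonize Wnt signaling, was higher (adjusted p = 0.0316, and 0.0633 without it). Its log2 fold change was 0.41 ± 0.09 (SE without the block), and 3 of its 6 probe sets passed without the block. Tpbg, a membrane protein that inhibits Wnt signaling in zebrafish, was higher with the block alone too (0.0305, and 0.0529 without it). Its log2 fold change was 0.52 ± 0.11 (SE without the block). Both are named after their values were seen. Of 19 Wnt ligand genes Wnt2 rose, at 5.24, 5.19 and 5.26 at 48 hpi and 4.34, 4.60 and 4.57 in controls (adjusted p = 0.0106). Its controls lay below the dim bound, so its fold is poorly fixed.

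Of 16 receptors and co-receptors Fzd9, a Frizzled, fell, by 0.64 ± 0.13 on the log2 scale (adjusted p = 0.0423). With the block alone Ror1, a receptor tyrosine kinase that binds Wnt5a, was higher (adjusted p = 0.0409, and 0.0585 without it). Its log2 fold change was 0.75 ± 0.17 (SE without the block), and it was named after its values were seen. Among 13 genes of ligand secretion and intracellular transduction, 0 were called in limma, and 3 had an unadjusted p under 0.05. Of all 18193 genes, 2651 were higher and 1690 lower at that unadjusted p. The members of this list with the highest means were Ctnnb1, which encodes beta-catenin (-0.18 ± 0.08, adjusted p = 0.272), and the kinase gene Csnk1a1 (0.06 ± 0.09, 0.763). Among 8 target and feedback genes of beta-catenin Cd44, an adhesion receptor that many leukocytes carry, rose by 0.93 ± 0.10 (adjusted p = 0.00485). The feedback gene Axin2, named after its values were seen, read 7.40 ± 0.06 at 48 hpi and 7.36 ± 0.15 in controls (SD, n = 3, adjusted p = 0.875). The call of Cd44 held whichever sample was left out. Wnt2 lost its call without 48 hpi replicate 3 (adjusted p = 0.0605), as did Lgr4 without 48 hpi replicate 3 (0.0661) or control replicate 2 (0.0528). Notum lost its call without 48 hpi replicate 1 (0.0540) or 3 (0.0785) and without control replicate 2 (0.0603) or 3 (0.0663). Fzd9 kept its call without 48 hpi replicate 1 alone (0.0407), with adjusted p of 0.0921 to 0.127 without each other sample.

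**Figure D4:**
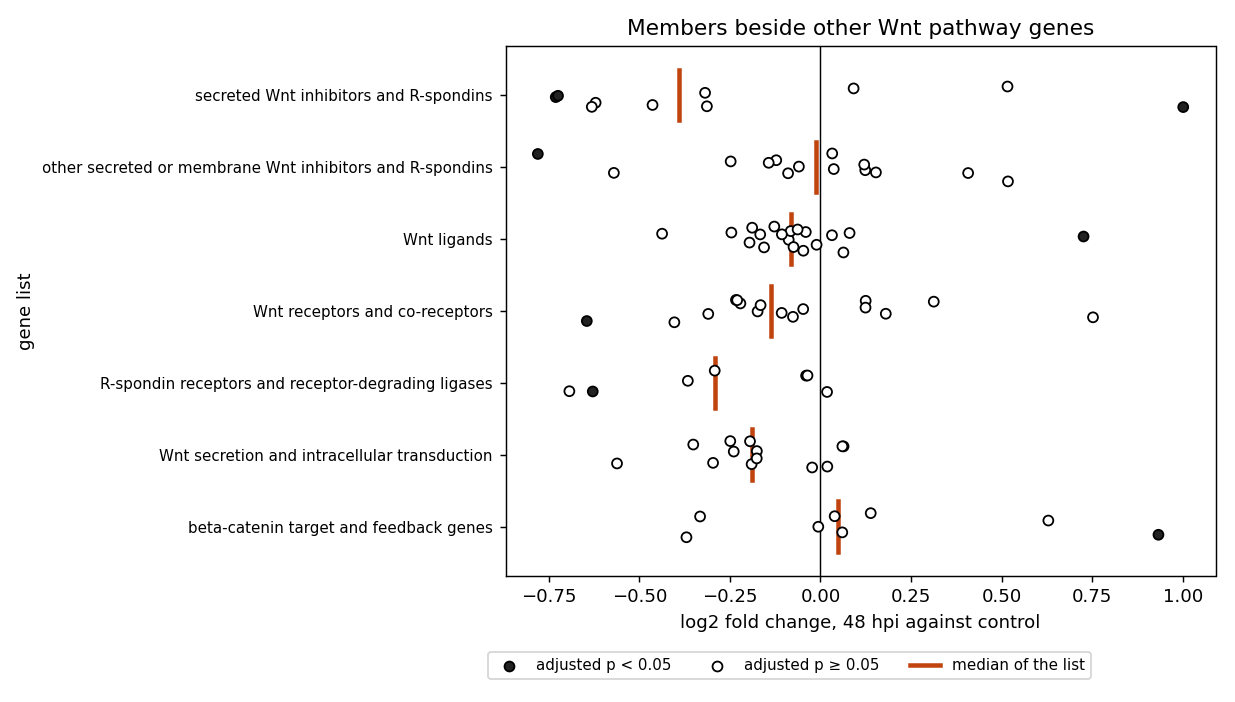
Log2 of 48 hpi over control (horizontal axis) for the 10 members and 6 lists of other Wnt pathway genes (vertical axis). Points are genes at their brightest probe set, filled where called, and thick strokes are list medians. The medians are -0.39 for the members and -0.01 for the other secreted or membrane inhibitors and R-spondins. They are -0.29 for R-spondin receptors and ligases, -0.19 for secretion and transduction, -0.14 for receptors, -0.08 for Wnt ligands and 0.05 for targets.

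Genes whose 6 values followed those of a called member most closely were looked up among 12833 genes above the dim bound. For Sfrp1 these were Leprotl1, Eif4ebp1 and Eif4e2, with Pearson r of 0.998 to 1.000 over the 6 arrays. For Dkk3 they were Col10a1, Ncam1 and Prkca (0.995 to 0.998), and for Wif1 they were Cep63, B930095G15Rik and Itih5 (0.994 to 0.996). With 2 groups of 3 arrays, the difference between groups enters every such r, and the values are given as a description.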

How the data were processed

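Amplified RNA of 3 samples per group was hybridized by the authors to Affymetrix mouse genome arrays, 1 per sample. Affymetrix Expression Console 1.1, Partek 6.5 and RMA are the tools named in the submitters' processing notes. The deposited values are log2 RMA values, which the authors background-corrected, quantile normalized and summarized per probe set. A change common to most genes is thus not visible, and folds of dim genes are compressed. Depth does not apply, and the number of arrays (3 per group) limits the precision.

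Of 45101 probe sets, 64 controls were left out. The platform annotation gave 34945 probe sets 1 symbol, 932 several and 9160 none, and symbols of 34741 were matched to RefSeq (GRCm38.p6) by Entrez identifier. A gene was read at its brightest probe set over all 6 arrays. All 45037 probe sets were fitted in limma 3.58.1 (R 4.3.3) with group as the factor, two-sided, Benjamini-Hochberg adjusted, threshold 0.05, with 4 residual degrees of freedom. The authors' own test had tissue as a second factor, which could not be used here. The fit was checked on simulated data with independent noise and changes of 1 or 2 log2 units. Deviations shared by samples of the same number, and the smaller changes of most members, were not part of that check. The dim bound, 4.92, is the 90th percentile of the means of 80 olfactory and vomeronasal receptor probe sets. Members, lists and the rule for named genes (every member, up to 3 rises and 3 falls per pathway list, or its 2 brightest genes, and for called members the 3 genes of most similar values) were chosen with earlier results of these data known.

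After removal of group means, samples with the same replicate number correlated at 0.62, 0.36 and 0.34 across probe sets, each above its highest correlation with another number, so a fit with the number as a block (2 residual degrees of freedom) is given where it changes a call. This pairing was seen in the values. The series' text speaks of repeated experiments without tying a number to one of them. Every sample was its own pool of mice. Without the block, p-values measure the spread of such pools, and with it the spread of differences between pools of the same number. Alternatives were array centring, an intensity trend, removal of 18590 dim probe sets, an equal-variance test with time as the only factor, averaging of probe sets and leaving out samples.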

Additional observations from a re-analysis of the deposited data

How the results depend on the processing

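Over the alternatives, 257 of 262 fold changes of members kept their sign. The 5 that did not were all of the Rspo2 probe set near 0 (1455893_at), at 0.0242 with arrays centred, 0.0016 without both samples numbered 1, and above 0 in 3 of the 6 fits that left out 1 sample, which ranged from -0.0473 to 0.0266. Calls depended more on the samples. Leaving out 1 sample left 3 to 4 member probe sets higher and 0 to 2 lower, and 1 to 3 pathway genes higher and 0 to 2 lower. Without both samples numbered 1, then 2, then 3, there were 3, 2 and 1 member probe sets higher, 0 lower in each, and 2, 0 and 0 pathway genes higher and 1, 0 and 0 lower, with 2 samples a group. With the replicate block 7 member probe sets were lower (against 2 without it) and 5 of 77 pathway genes higher (against 2). The block also raised calls over the whole array. Of all probe sets 4.51% were lower with it and 0.846% without, and of all genes 8.77% were higher with it and 4.97% without. The block lost no call of a member. A one-factor equal-variance test without shared spread is not the study's own test of tissue and time. After adjustment it called 0 in each direction, among members and among pathway genes. At an unadjusted p under 0.05 it gave 5 member probe sets higher and 6 lower, and 6 pathway genes higher and 11 lower. Its count over all features was not made. In limma, 4830 probe sets higher and 3732 lower of 45037 had such a p. Among 18193 genes these were 2651 and 1690. Pathway genes that were higher numbered 4 without dim probe sets, and 4 when probe sets were averaged. The cause of these shifts was not tested, beyond the smaller number of samples or features. Signals near the dim bound limit the folds of Rspo2, Wnt2 and the probe sets 1460187_at and 1443187_at.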
